A study of Mus musculus with 6 samples.

Results

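The genes examined here are 10 markers of megakaryocytes and platelets, Pf4, Itga2b, Vwf, Gp1bb, Gp9, Selp, Itgb3, Ppbp, Clec1b and Treml1, taken by gene name from a table of 36976 genes measured by RNA-Seq in long-term (LT) CML stem cells. All 10 were found once in the table, and all 10 had a value above 0 in each of the 6 libraries.

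Megakaryocytes are the large bone marrow cells that shed platelets, and they arise from haematopoietic stem cells under the control of the hormone thrombopoietin. They fill platelets with granules of chemokines and adhesion proteins and cover them with receptors that bind von Willebrand factor, fibrinogen and collagen. Part of the LT stem cell compartment of the mouse is known to carry platelet transcripts such as Vwf and Itga2b (CD41), so these genes are measured in stem cells as well as in megakaryocytes.

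The cells were CD150+CD48-CD135-LSK cells (Lineage-Sca-1+cKit+) sorted from bone marrow of C57BL/6 mice carrying both SCL-tTA and TRE-BCR-ABL1, a transgene pair in which a promoter active in haematopoietic stem and progenitor cells switches on the BCR-ABL1 kinase once doxycycline (Dox) is withdrawn. Both genotypes therefore had BCR-ABL1-driven chronic myelogenous leukaemia (CML), and cells were taken 5 weeks after induction. The Gdpd3+/+ group held 3 libraries (replicates 1, 2 and 3) drawn from 34 mice, 22 males and 12 females, and the Gdpd3-/- group held 3 libraries (replicates 5, 6 and 7) drawn from 10 mice, 5 males and 5 females. Gdpd3-/- mice lack the lysophospholipase D Gdpd3 in every cell through a short deletion made by genome editing, so that the platelets, megakaryocytes and marrow around the stem cells also lacked it. The levels given here are all those of leukaemic cells. How the mice were divided among the libraries is not given in the labels, and p-values measure only the spread between these libraries.

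Values are FPKM (fragments per kilobase of gene, scaled to the library total), a scale on which genes of different length can be compared. Total counts recovered from the FPKM values were 49753146 to 62762437 in Gdpd3+/+ and 21334716 to 36421439 in Gdpd3-/-. The disrupted gene Gdpd3 was read at 2.95 to 7.30 FPKM in Gdpd3+/+ and at 0.0129 to 0.681 in Gdpd3-/-, with no overlap (exact permutation p = 0.1, two-sided as all such tests here and the lowest value possible for 3 libraries against 3). The genes of the sorting gate were present, with Kit at 108 to 136 FPKM and Ly6a (Sca-1) at 342 to 563 over the 6 libraries and Slamf1 (CD150) lower, at 5.41 to 13.2. Of 8 transcripts of surface proteins used to remove cells, 7 were tested. Flt3 (CD135) was called higher in Gdpd3-/- (9.80 to 11.0 FPKM in Gdpd3+/+ and 36.8 to 46.5 in Gdpd3-/-, limma adjusted p = 0.00562) and Ly6c2 lower (limma adjusted p = 0.0222), beside 1.71% of all genes called. Cd48 was read at 39.8 to 44.8 FPKM in Gdpd3+/+ and 51.6 to 92.2 in Gdpd3-/- (limma adjusted p = 0.188). Itgam (Mac1) was read at 19.3 to 22.3 FPKM in Gdpd3+/+ and 1.69 to 13.4 in Gdpd3-/- (limma adjusted p = 0.193). Ly6c1 was also lower without overlap (limma adjusted p = 0.0952). In all, 2 of the 7 were higher and 3 lower without overlap, beside 23.5% and 8.27% of all genes.

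The 10 genes spanned a wide range of levels in Gdpd3+/+ LT-CML stem cells. Pf4 stood first at 193 FPKM ± 43.7 (SD, n = 3), above 98.6% of the 24689 genes tested, followed by Itga2b at 41.5 ± 6.38, Gp9 at 31.8 ± 3.68, Selp at 22.5 ± 2.23 and Itgb3 at 15.8 ± 2.59. The lower members were Gp1bb at 10.7 ± 2.76, Treml1 at 6.15 ± 1.47, Ppbp at 3.66 ± 0.965, Vwf at 2.51 ± 0.212 and Clec1b at 0.503 ± 0.195, which lay above 35.1% of genes. Neighbours in this order whose ranges over the Gdpd3+/+ libraries overlapped were Itga2b with Gp9, Gp1bb with Treml1, and Ppbp with Vwf. Read within each library, Gp1bb was above Treml1 and Ppbp above Vwf in all 6. Itga2b was above Gp9 in 4 of the 6, among them every Gdpd3+/+ library. In Gdpd3-/- the libraries of each member overlapped those of the next in that order, except Pf4, whose 3 libraries were all above those of Itga2b.

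No member was called different between the genotypes. Limma fitted to log2(FPKM + 0.1) of all genes tested gave 0 of 10 members an adjusted p under 0.05, against 1.71% of all genes, and 1 of 10, Itga2b, an unadjusted p under 0.05, against 22.2% of all genes. The libraries of the genotypes overlapped for all 10 members, whereas every Gdpd3-/- library was above every Gdpd3+/+ library for 23.5% of all genes and below for 8.27%. The 422 genes called over all genes became 0 without Gdpd3+/+ replicate 1 and 3413 without Gdpd3-/- replicate 7, and no member was among them with any library left out. The median log2 fold change of the members was -0.01, beside 0.24 over all genes tested. After TMM scaling these medians were -0.22 and 0.05.

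**Figure D1:**
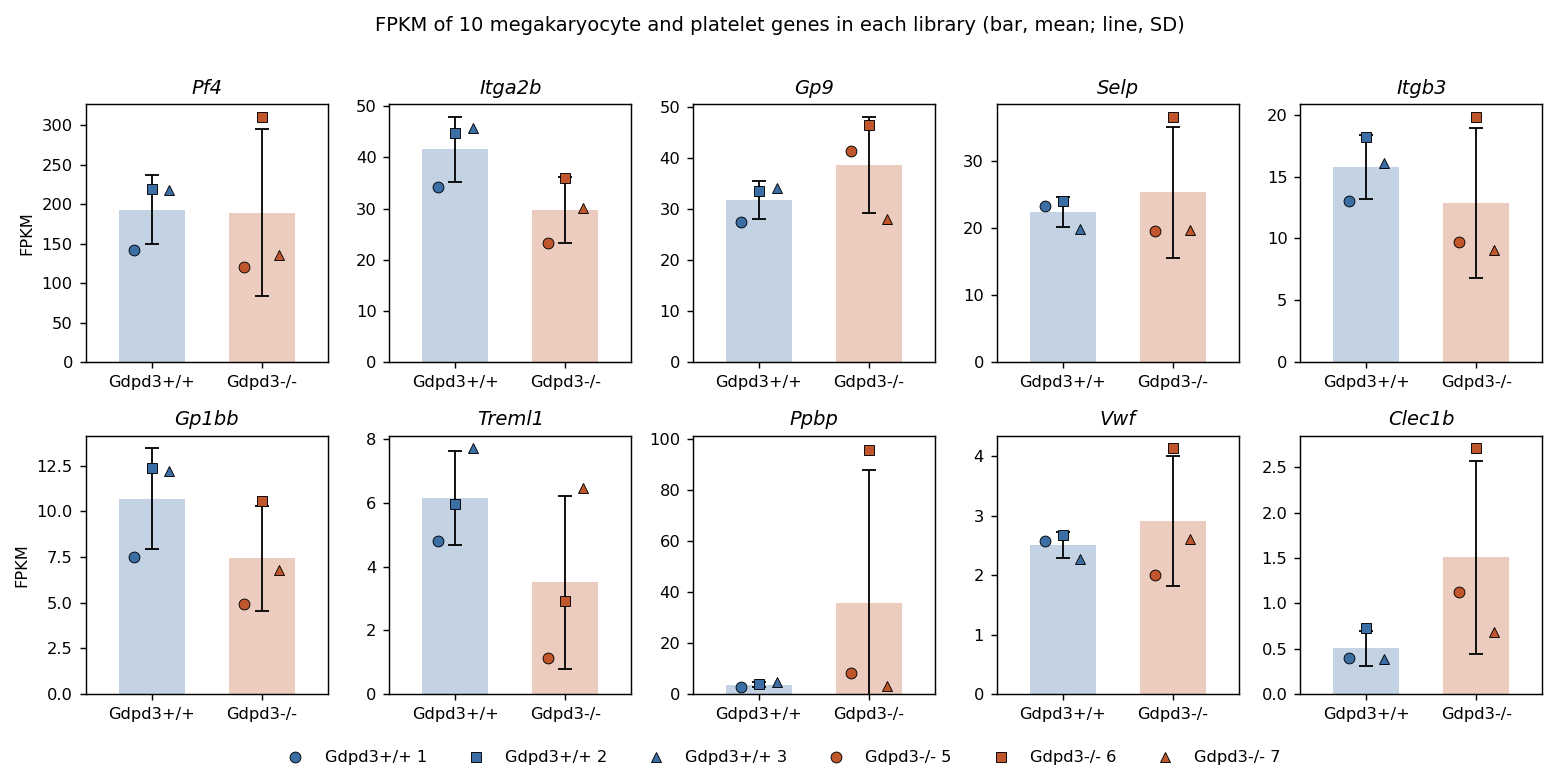
FPKM (vertical axis, from 0, a separate scale for each gene) of the 10 members in Gdpd3+/+ (blue) and Gdpd3-/- (orange) LT-CML stem cells. Points are libraries, bars are means and lines are SDs (that of Ppbp in Gdpd3-/- is cut at 0). In every panel the points of the genotypes overlap, and replicate 6 is the highest of the 6 libraries for 7 of the 10 genes.

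The granule chemokines Pf4 and Ppbp are neighbours in the genome yet their values spread differently over the Gdpd3-/- libraries. Pf4 encodes platelet factor 4 (CXCL4), a chemokine stored in the alpha granules that is also known as a signal from megakaryocytes that keeps haematopoietic stem cells quiescent. It lies at chr5:91201461-91202407 on the plus strand (ENSMUSG00000029373.6, build mm9, 3 exon blocks, 586 bases of exon). Ppbp encodes pro-platelet basic protein (CXCL7), which is cut to a neutrophil-attracting chemokine, and lies at chr5:91197544-91199086 (ENSMUSG00000029372.6) on the same strand, 2374 bases from Pf4 with no gene start of the table between them. The windows from 250 bases before to 50 bases after the start sites are shown because the start sites are so close while the values differ (RefSeq, GRCm38.p6, plus strand, chr5:90772185-90772484 for Pf4 and chr5:90768268-90768567 for Ppbp). Capitals mark the GATA motif (GATA with A or T before it and A or G after it, bound by the megakaryocyte factor Gata1) and the ETS motif (GGAA with CA or CC before it, bound by the family of Fli1), read on both strands, with no overlap between them:
Pf4: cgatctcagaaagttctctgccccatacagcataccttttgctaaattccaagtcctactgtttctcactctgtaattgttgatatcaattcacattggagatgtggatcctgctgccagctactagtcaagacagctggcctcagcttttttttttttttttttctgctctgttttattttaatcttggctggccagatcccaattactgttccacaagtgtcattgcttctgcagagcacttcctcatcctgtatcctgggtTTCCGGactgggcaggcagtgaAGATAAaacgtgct
Ppbp: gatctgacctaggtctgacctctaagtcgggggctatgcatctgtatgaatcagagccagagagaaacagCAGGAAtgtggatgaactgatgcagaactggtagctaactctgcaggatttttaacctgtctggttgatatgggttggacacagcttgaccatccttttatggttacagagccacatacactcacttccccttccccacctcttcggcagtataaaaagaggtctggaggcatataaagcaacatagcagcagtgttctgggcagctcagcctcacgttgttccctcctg

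The Pf4 window held a GATA motif that starts 36 bases after the start site and an ETS motif 14 bases after it, and the Ppbp window held an ETS motif at position -180 from the start site. Of 32851 mouse promoter windows of this length, 29.8% held the GATA motif, 41.4% the ETS motif and 11.4% both. Windows were found for 8 of the 10 members, of which 3 held the GATA motif, 4 the ETS motif and 1, Pf4, both. These matches describe the letters only.

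Pf4 was read at 143, 219 and 218 FPKM in the Gdpd3+/+ libraries (replicates 1, 2 and 3). The Gdpd3-/- libraries (replicates 5, 6 and 7) stood at 121, 310 and 136 FPKM. The highest and the lowest of the 6 values were both Gdpd3-/- libraries, with the Gdpd3+/+ libraries between them. The log2 fold change was -0.14 (95% interval -1.04 to 0.76, limma adjusted p = 0.839), and it turned positive without replicate 5 or without replicate 7. The exact permutation test of the means gave p = 0.9.

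Ppbp was read at 2.61, 3.87 and 4.50 FPKM in Gdpd3+/+, and at 8.38, 95.7 and 3.20 FPKM in Gdpd3-/- replicates 5, 6 and 7. Replicate 6 alone carried the high mean of 35.7 FPKM in Gdpd3-/-, being 11.4 times the next highest library, and replicate 7 lay inside the Gdpd3+/+ range. The value in replicate 6 rests on 3763 counts and that in replicate 7 on 87, for which the exact Poisson 95% interval is 2.57 to 3.95 FPKM, covering counting error only. The log2 fold change of 1.92 had an interval of -0.81 to 4.65 (limma adjusted p = 0.363, exact permutation p = 0.3), and it was 0.53 (-0.61 to 1.67) without replicate 6. Relative to Pf4, the Ppbp level was 0.0177 to 0.0207 in Gdpd3+/+ and 0.0235 to 0.308 in Gdpd3-/-. This ratio did not overlap between the genotypes (exact permutation p = 0.1, the smallest possible, adjusted p = 0.167 over 5 ratios of members). Its closest values were 0.0235 in Gdpd3-/- replicate 7, resting on those 87 counts of Ppbp, and 0.0207 in Gdpd3+/+ replicate 3. The share of all gene pairs whose ratio does not overlap was not counted. Single genes did not overlap for 23.5% (higher) and 8.27% (lower) of all genes.

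The GPIb-IX-V complex tethers platelets to von Willebrand factor at sites of injury. Of its subunits among the members, Gp1bb (GPIb beta) lies at chr16:18620412-18622496 (ENSMUSG00000050761.3) on the minus strand and Gp9 (GPIX) at chr6:87728130-87729756 (ENSMUSG00000030054.3) on the plus strand (mm9). Gp1bb was read at 7.51, 12.4 and 12.2 FPKM in Gdpd3+/+ and at 4.93, 10.6 and 6.79 FPKM in Gdpd3-/- replicates 5, 6 and 7. Replicates 5 and 7 were below every Gdpd3+/+ library and replicate 6 was among them. Its log2 fold change was -0.55 (95% interval -1.33 to 0.23, limma adjusted p = 0.360, exact permutation p = 0.2). The exons of Gp1bb share 593 bases with Sept5 on the same strand, so reads there cannot be given to one gene. Sept5, read at 2.65 to 3.33 FPKM in Gdpd3+/+ and 0 to 0.878 in Gdpd3-/-, had a limma adjusted p of 0.118.

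Gp9 was read at 27.5, 33.6 and 34.2 FPKM in Gdpd3+/+ and at 41.4, 46.4 and 28.1 FPKM in Gdpd3-/-. Here replicates 5 and 6 were above every Gdpd3+/+ library and replicate 7 was inside their range. Replicate 6 was the highest Gdpd3-/- library for both Gp9 and Gp1bb. Its log2 fold change was 0.26 (95% interval -0.23 to 0.74, limma adjusted p = 0.494, exact permutation p = 0.3). Within a library, the Gp9 level was 2.71 to 3.67 times that of Gp1bb in Gdpd3+/+ and 4.14 to 8.39 times in Gdpd3-/-. It was higher in 3 of 3 Gdpd3-/- libraries (exact permutation p = 0.1, adjusted p = 0.167 over the 5 ratios). The closest values were 4.14 in Gdpd3-/- replicate 7, on 573 and 321 counts, and 3.67 in Gdpd3+/+ replicate 1. The bases that Gp1bb shares with Sept5, itself lower in Gdpd3-/-, also enter this ratio, and their part in it was not tested. Of the other ratios, Gp9 over Itga2b was 0.749 to 0.806 in Gdpd3+/+ and 0.936 to 1.78 in Gdpd3-/- (exact permutation p = 0.1, adjusted p = 0.167). Clec1b over Treml1 was 0.0497 to 0.122 and 0.106 to 0.995 (exact permutation p = 0.2, adjusted p = 0.25). How often ratios of other gene pairs do not overlap was not counted.

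Vwf encodes von Willebrand factor, the long adhesive protein that the GPIb complex binds, and in the mouse marrow it marks platelet-biased stem cells. It lies at chr6:125496792-125636697 (ENSMUSG00000001930.10) on the plus strand (mm9) and, with 16064 bases of exon, is the longest of the 10 genes. It was read at 2.57, 2.68 and 2.27 FPKM in Gdpd3+/+ and at 2.01, 4.14 and 2.6003 FPKM in Gdpd3-/-. Replicate 6 was above and replicate 5 below every Gdpd3+/+ library, while replicate 7 was within them. On the log2 scale the genotypes differed by 0.15 (95% interval -0.58 to 0.88, limma adjusted p = 0.778, exact permutation p = 0.8), and it turned negative after TMM scaling, after quantile normalization and without replicate 6.

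Itga2b and Itgb3 encode the integrin alpha IIb and beta 3 chains, which pair as the platelet fibrinogen receptor. Itga2b lies at chr11:102314611-102331436 (ENSMUSG00000034664.7) on the minus strand and Itgb3 at chr11:104469370-104531790 (ENSMUSG00000020689.3) on the plus strand (mm9). Itga2b was read at 34.2, 44.7 and 45.7 FPKM in Gdpd3+/+ and at 23.2, 36.0 and 30.04 FPKM in Gdpd3-/-. Only replicate 6 reached into the Gdpd3+/+ range, passing its lowest library. The log2 fold change of -0.49 (95% interval -0.96 to -0.02, unadjusted p = 0.0422 and adjusted p = 0.208 in limma, exact permutation p = 0.2) did not pass the test after adjustment over all genes.

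Itgb3 was read at 13.04, 18.2 and 16.1 FPKM in Gdpd3+/+ and at 9.71, 19.8 and 9.06 FPKM in Gdpd3-/-. Replicates 5 and 7 were below every Gdpd3+/+ library, and replicate 6 was above them all. On the log2 scale the difference was -0.37 (95% interval -1.13 to 0.38, limma adjusted p = 0.505, exact permutation p = 0.5). Itga2b stood at 2.46 to 2.83 times the level of Itgb3 in Gdpd3+/+ and at 1.82 to 3.32 times in Gdpd3-/- (exact permutation p = 0.8), so the integrin chains kept overlapping proportions.

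Selp encodes P-selectin, which waits in granule membranes and reaches the surface when platelets or endothelial cells are activated. It lies at chr1:166045395-166080157 (ENSMUSG00000026580.9) on the plus strand (mm9). It was read at 23.4, 24.1 and 19.9 FPKM in Gdpd3+/+ and at 19.6, 36.6 and 19.8 FPKM in Gdpd3-/-. Replicates 5 and 7 lay just below the lowest Gdpd3+/+ library, and replicate 6 was 1.52 times the highest. The log2 fold change was 0.11 (95% interval -0.50 to 0.73, limma adjusted p = 0.802, exact permutation p = 1), and it turned negative after TMM scaling, after quantile normalization and without replicate 6. Exons of Selp share 186 and 438 bases with the antisense genes Gm16587 and Gm16548, and the use of strand in counting is not given, so reads of these genes and of Selp cannot be told apart there. Both were highest in replicate 6 as well, at 15.7 and 10.4 FPKM.

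Treml1 encodes TLT-1, an alpha-granule receptor found in platelets and megakaryocytes, and lies at chr17:48499241-48506499 (ENSMUSG00000023993.6) on the plus strand (mm9). It was read at 4.80, 5.95 and 7.71 FPKM in Gdpd3+/+ and at 1.13, 2.90 and 6.47 FPKM in Gdpd3-/- replicates 5, 6 and 7. Replicates 5 and 6 were below every Gdpd3+/+ library and replicate 7 was inside their range, so Treml1 did not share the high replicate 6 of most members. The value of replicate 5 rests on 30 counts (exact Poisson 95% interval 0.760 to 1.61 FPKM). Its log2 fold change was -1.09 (95% interval -2.48 to 0.31, limma adjusted p = 0.321, exact permutation p = 0.3), and it was -0.47 without replicate 5 and -1.68 without replicate 7.

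Clec1b encodes CLEC-2, the podoplanin receptor of platelets, and lies at chr6:129347315-129359353 (ENSMUSG00000030159.9) on the plus strand (mm9). It was the lowest member, at 0.398, 0.727 and 0.384 FPKM in Gdpd3+/+ and at 1.12, 2.71 and 0.686 FPKM in Gdpd3-/-. Replicates 5 and 6 were above every Gdpd3+/+ library, and replicate 7 was below the highest of them. Its log2 fold change was 1.25 (95% interval -0.09 to 2.597, limma adjusted p = 0.249, exact permutation p = 0.2), on the log2(FPKM + 0.1) scale, which understates changes of genes this low. The annotated exons share 184 bases with Clec9a on the same strand, which was read at 0 to 0.430 FPKM over the 6 libraries.

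**Figure D2:**
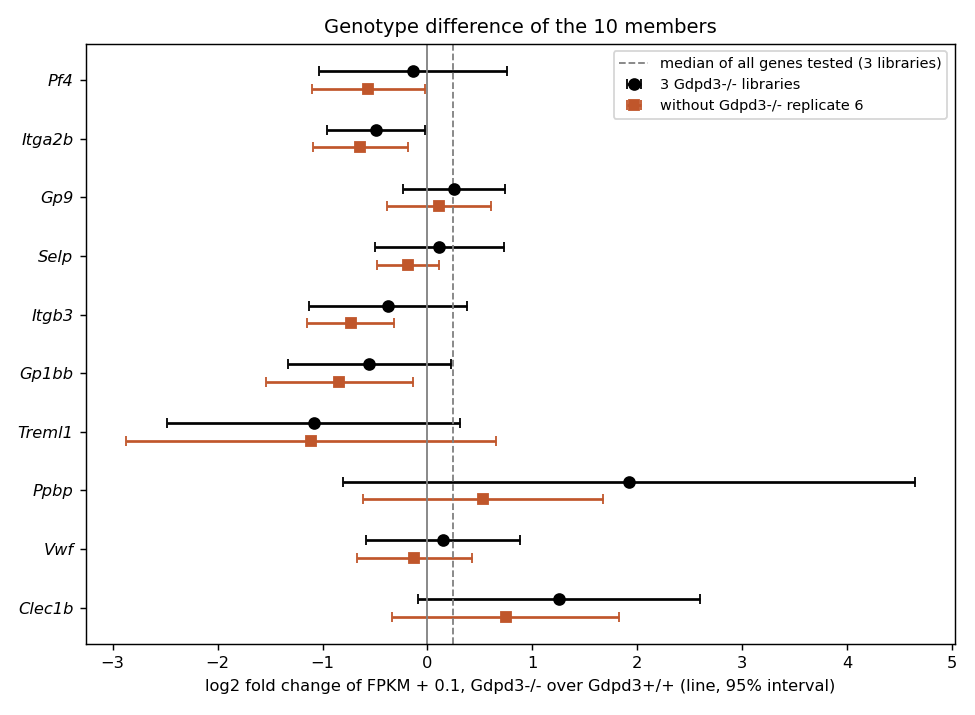
Log2 fold change of FPKM + 0.1 between Gdpd3-/- and Gdpd3+/+ (horizontal axis) for the 10 members in order of their Gdpd3+/+ level, with 95% intervals from limma, using all libraries (black) or leaving out Gdpd3-/- replicate 6 (orange). With all libraries only the interval of Itga2b ends below 0, and without replicate 6 those of Pf4, Itga2b, Itgb3 and Gp1bb do. No member had an adjusted p under 0.05 in either fit. Leaving out replicate 7 instead (not drawn) put the intervals of Gp9 (0.13 to 0.81), Ppbp (0.35 to 5.56) and Clec1b (0.35 to 2.98) above 0 and that of Treml1 (-2.80 to -0.55) below.

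The spread within Gdpd3-/- was wider than within Gdpd3+/+ for all 10 members, as it was for 86.4% of all genes tested. The median SD of the members on the log2 scale was 0.58 in Gdpd3-/- and 0.29 in Gdpd3+/+, beside 0.52 and 0.15 over all genes. Within Gdpd3+/+, replicate 1 was the lowest library for 7 of the 10 members and had the lowest summed level (259 FPKM, beside 365 and 361). The share of all genes lowest in replicate 1 within Gdpd3+/+ was not counted. Over all 6 libraries, replicate 1 was the lowest for 2 members and for 29.4% of all genes, beside 11.1% and 13.3% for replicates 2 and 3. No difference between members and all genes was tested.

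Replicate 6 was the highest of the 6 libraries for 7 of the 10 members (Pf4, Vwf, Gp9, Selp, Itgb3, Ppbp and Clec1b), beside 29.1% of all genes. Replicate 5 was the lowest for 6 of them, beside 19.1% of all genes. Summed over the members, the level was 232, 565 and 243 FPKM in replicates 5, 6 and 7. Pf4 made 52.0% to 60.3% of this sum in each library, and the 8 members other than Pf4 and Ppbp summed to 103, 159 and 104 FPKM in the same replicates and to 113 to 142 in Gdpd3+/+. The excess in replicate 6 ranged from 1.26 times the Gdpd3+/+ mean for Itgb3 through 1.61 times for Pf4 and 5.39 times for Clec1b to 26.2 times for Ppbp. Itga2b, Gp1bb and Treml1 stood at 0.868, 0.988 and 0.472 times that mean in the same library.

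Median log2 differences of the members from the Gdpd3+/+ mean were -0.48, 0.63 and -0.17 in replicates 5, 6 and 7, where those of all genes were 0.17, 0.09 and 0.21. Replicate 5 lay below every Gdpd3+/+ library for 7 members and replicate 7 for 5 members, against 27.9% and 18.0% of all genes. In these bulk libraries, fewer cells of a type and less RNA per cell cannot be told apart.

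**Figure D3:**
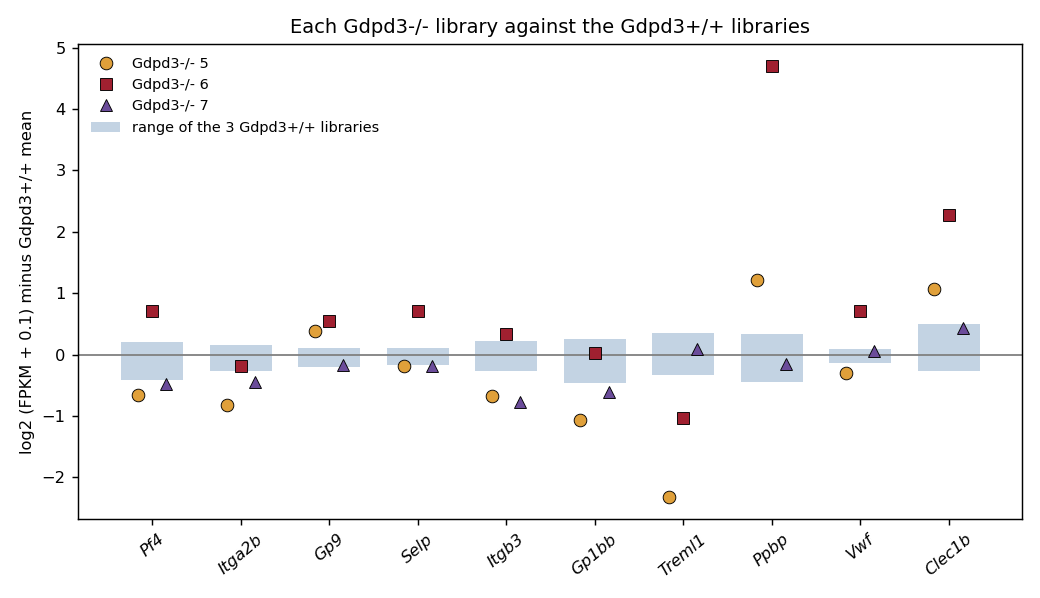
Log2(FPKM + 0.1) of each Gdpd3-/- library minus the mean of the Gdpd3+/+ libraries (vertical axis) for the 10 members. Shaded bars span the Gdpd3+/+ libraries and points are Gdpd3-/- replicates 5, 6 and 7. Replicate 6 lies above the shaded span for 7 members (47.5% of all genes) and replicate 5 below it for 7 (27.9% of all genes).

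Without replicate 6, an alternative listed for every result, no member was called (0 of 10, beside 1.94% of all genes, limma), and 4 of 10 had an unadjusted p under 0.05, beside 26.4% of all genes. Every remaining Gdpd3-/- library was then below every Gdpd3+/+ library for 5 of 10 members (Pf4, Itga2b, Itgb3, Gp1bb and Selp), beside 11.5% of all genes, and above for 0 of 10, beside 34.7%. The log2 fold changes became -0.56 for Pf4 (95% interval -1.10 to -0.02), -0.64 for Itga2b (-1.09 to -0.18), -0.73 for Itgb3 (-1.15 to -0.31), -0.84 for Gp1bb (-1.54 to -0.14) and -0.18 for Selp (-0.48 to 0.11). The lowest limma adjusted p among the members was then 0.0832, for Itgb3. With 2 Gdpd3-/- libraries left, the spread within that genotype rests only on the difference between them. The fit pools it with the spread within Gdpd3+/+.

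Leaving out replicate 7 moved other members. None was called (0 of 10, beside 14.2% of all genes, limma), and again 4 of 10 had an unadjusted p under 0.05, beside 31% of all genes. Gp9, Ppbp and Clec1b were then higher in every Gdpd3-/- library (3 of 10, beside 31.5% of all genes), with log2 fold changes of 0.47, 2.96 and 1.66, and Treml1 was lower in every one (1 of 10, beside 16.8%), at -1.68. The median of the members was 0.12 without replicate 7 and -0.37 without replicate 6.

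The other genes of megakaryocytes and platelets were followed in 6 lists by role, 53 genes of which 52 passed the filter on low values. None was called (limma, adjusted p under 0.05, beside 1.71% of all genes), while 10 were higher and 7 lower at an unadjusted p under 0.05, beside 16.5% and 5.76% of all genes, and their median log2 fold change was -0.04. The number called was 1 without Gdpd3-/- replicate 6 (Cavin2) and 6 without replicate 7 (Myl9, Vamp8, Fli1, Tbxa2r, Rap1b and Alox12), when 14.2% of all genes were called. Replicate 6 was the highest library for 16 of the 52, beside 29.1% of all genes. Among the 16 was the tubulin gene Tubb1 (4.47 FPKM, beside 0 to 1.06 in the other libraries), with 0 and 13 counts in replicates 5 and 7.

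Transcription factors of the lineage were present in every library. Nfe2, which drives the last steps of platelet release, was the highest, at 133 to 150 FPKM in Gdpd3+/+ and 154 to 175 in Gdpd3-/- (log2 fold change 0.23, limma adjusted p = 0.224). Gata1, which specifies megakaryocytes and red cells, had the lowest fold change of the 8, -0.55, with 24.7 to 28.3 FPKM in Gdpd3+/+ and 11.0, 24.0 and 23.3 in Gdpd3-/- (limma adjusted p = 0.326). Its partner Zfpm1 (FOG-1) had the highest, 0.34 (limma adjusted p = 0.234).

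Among genes of thrombopoietin signalling, the kinase Jak2 had the lowest log2 fold change, -0.94 (limma adjusted p = 0.261), with 24.1 to 25.2 FPKM in Gdpd3+/+ and 5.96, 17.3 and 20.4 in Gdpd3-/-. All 3 Gdpd3-/- libraries were below Gdpd3+/+ for Jak2, replicate 5 the farthest. Sh2b3 (LNK), an adaptor that restrains this signalling, had the highest log2 fold change of that list, 0.27 (limma adjusted p = 0.385).

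Among 15 surface receptors, Fcer1g, the shared signalling chain of the collagen receptor, was the highest, at 127 to 135 FPKM in Gdpd3+/+ and 98.9 to 170 in Gdpd3-/-. Gp6, the collagen receptor itself, was listed at 0 in all 6 libraries. Tbxa2r, the thromboxane A2 receptor, had the highest fold change of the list and of these 52 genes the lowest adjusted p. It was read at 9.27, 10.8 and 11.3 FPKM in Gdpd3+/+ and at 18.5, 15.7 and 17.8 in Gdpd3-/-, a log2 fold change of 0.72 (limma adjusted p = 0.0567). The ADP receptor P2ry12 had the lowest, -1.46 (limma adjusted p = 0.313), at 0.158 to 0.515 FPKM in Gdpd3+/+ and listed at 0 in replicates 5 and 7.

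Of 11 granule and release genes, Vamp8, a protein of granule fusion, was the highest, at 135 to 141 FPKM in Gdpd3+/+ and 170 to 202 in Gdpd3-/- (log2 fold change 0.43, limma adjusted p = 0.0792). Coagulation factor F5 was read at 5.06, 4.34 and 4.71 FPKM in Gdpd3+/+ and at 2.27, 0.606 and 1.68 in Gdpd3-/-, giving the lowest log2 fold change of the 6 lists, -1.73 (limma adjusted p = 0.0980). Nbeal2, needed to form alpha granules, had the highest of its list, 0.62 (limma adjusted p = 0.115). Platelet granule genes thus had values on both sides of 0, as the members had.

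Of 12 genes of cytoskeleton and activation, Rap1b, the GTPase that switches on the integrin, was the highest, at 345 to 376 FPKM in Gdpd3+/+ and 250 to 287 in Gdpd3-/- (log2 fold change -0.45, limma adjusted p = 0.0756). The calcium channel Trpc6 had the lowest fold change, -1.13 (limma adjusted p = 0.255). Myl9, a myosin light chain of platelets and smooth muscle, had the highest, 2.99 (limma adjusted p = 0.152), with 0.384 to 1.33 FPKM in Gdpd3+/+ and 9.48, 26.7 and 1.58 in Gdpd3-/- replicates 5, 6 and 7. Like Ppbp and Clec1b, Myl9 was highest in replicate 6 and lowest of the Gdpd3-/- libraries in replicate 7. Of the 3 eicosanoid enzymes, Ptgs1 (cyclooxygenase-1) was the highest, at 34.1 to 41.8 FPKM in Gdpd3+/+ and 24.3 to 33.4 in Gdpd3-/- (log2 fold change -0.33, limma adjusted p = 0.267), and Alox12, the platelet 12-lipoxygenase, had a log2 fold change of 1.86 (limma adjusted p = 0.159), at 0.426 to 0.535 FPKM in Gdpd3+/+ and 2.22, 4.38 and 0.709 in Gdpd3-/-.

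**Figure D4:**
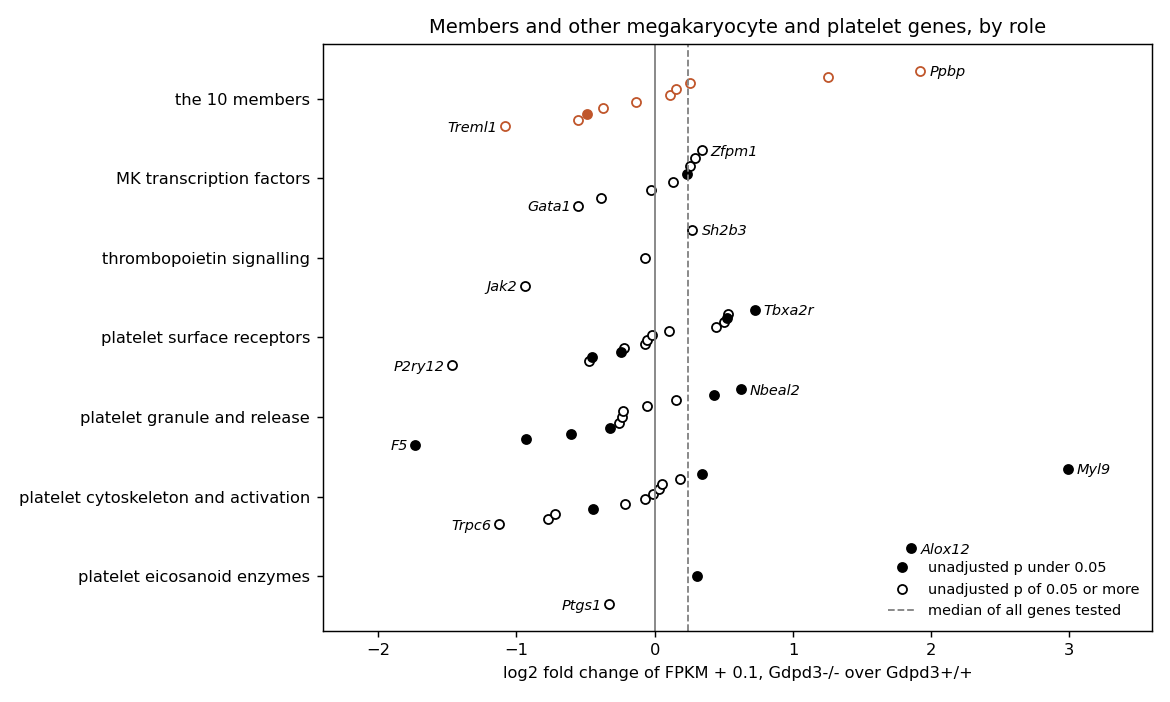
Log2 fold change of FPKM + 0.1 between Gdpd3-/- and Gdpd3+/+ (horizontal axis) for the members (orange) and the other megakaryocyte and platelet genes (black) by role, leaving out 1 gene that is not reported here. Filled points have an unadjusted limma p under 0.05, and the dashed line is the median of all genes tested, 0.24. Each list spreads on both sides of 0, from -1.73 (F5) to 2.99 (Myl9), and no point has an adjusted p under 0.05.

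The Gdpd3-/- libraries also differed in markers of other cells. All 10 skeletal muscle markers had their highest value in replicate 6, and their summed level was 845 to 1252 FPKM in Gdpd3+/+ but 10910, 15667 and 2077 in replicates 5, 6 and 7. Of these, 0 of 10 were called and 10 of 10 had an unadjusted p under 0.05 (limma), beside 1.71% and 22.2% of all genes. The same order, replicate 6 above 5 above 7, was that of 4 of 10 members (Gp9, Itgb3, Ppbp and Clec1b) and of 14.6% of all genes. Of the 52 other megakaryocyte and platelet genes, 8 had it, near that share. The part of these muscle transcripts in the members' values was not tested. Endothelial markers, of cells that also make Selp and Vwf, summed to 52.2 to 60.4 FPKM in Gdpd3+/+ and 62.6 to 76.9 in Gdpd3-/-, where replicate 6 was the lowest. Of these, 1 of 10, Egfl7, was called higher (limma adjusted p = 0.0454), beside 1.71% of all genes called. Tek, an angiopoietin receptor of endothelial and stem cells, had lower values in every Gdpd3-/- library (11.4 to 12.8 FPKM in Gdpd3+/+, 7.21 to 9.59 in Gdpd3-/-, limma adjusted p = 0.123). The defining gene Cdh5 was read at 0 to 0.217 FPKM in Gdpd3+/+ and at 0.365, 0.723 and 0.0599 in Gdpd3-/-, on 0 to 105 counts. The highest genes of the endothelial list, which carry its sum, were Tek, Tie1, Pecam1 and Egfl7, averaging 10.2 to 16.5 FPKM over the 6 libraries. Cdh5, Sele and Kdr averaged 0.235, 0.333 and 0.370. The part of endothelial cells in this sum was not tested. Though the endothelial sum was lowest of the Gdpd3-/- libraries in replicate 6, 3 of its 10 genes were highest there, beside 29.1% of all genes. These were Cdh5, Plvap (2.77 FPKM) and Ecscr (5.15 FPKM).

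Red cells share the Gata1 programme with megakaryocytes. The 10 erythroid markers summed to 3157 to 4971 FPKM in Gdpd3+/+ and to 1964, 3181 and 4941 in replicates 5, 6 and 7. Of these, 0 of 10 were called and 1 of 10 had an unadjusted p under 0.05 (limma), beside 1.71% and 22.2% of all genes. Replicate 6 was the highest library for none of them, beside 29.1% of all genes. The 10 neutrophil markers summed to 29714 to 32496 FPKM in Gdpd3+/+ and 8342 to 13769 in Gdpd3-/-. Of these, 5 of 10 were called lower (Elane, Prtn3, Camp, Ltf and Ngp). Mast cell and basophil markers summed to 150 to 354 FPKM in Gdpd3+/+ and 598 to 845 in Gdpd3-/-. Cpa3 and Gzmb of 8 were called higher, and 5 of 8 were higher without overlap, beside 23.5% of all genes. Mcpt8, Prss34 and Ms4a2 overlapped between the genotypes, with log2 fold changes of 0.50, 0.30 and -0.64, so the list did not rise as a whole. B and plasma cell markers summed to 2093 to 2711 FPKM in Gdpd3+/+ and 999 to 1822 in Gdpd3-/-, with Mzb1 of 8 called lower. That last sum is mostly Jchain, an immunoglobulin chain of plasma cells at 882 to 2551 FPKM. Of those 8 genes 2 were higher and 2 lower at an unadjusted p under 0.05 (limma), beside 16.5% and 5.76% of all genes. The B cell genes Cd79b (39.5 to 39.9 FPKM in Gdpd3+/+, 50.2 to 58.7 in Gdpd3-/-) and Ebf1 (0.158 to 0.504 and 1.45 to 2.48, on 4.5 to 30.5 counts) had higher values without overlap. That is 2 of 8, near the 23.5% of all genes. The 8 markers of long-term stem cells summed to 153 to 162 FPKM in Gdpd3+/+ and 169 to 232 in Gdpd3-/-. None was called, and 3 of 8 had an unadjusted p under 0.05 (limma), beside 22.2% of all genes. The part of these cells in the members' values was not tested.

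**Figure D5:**
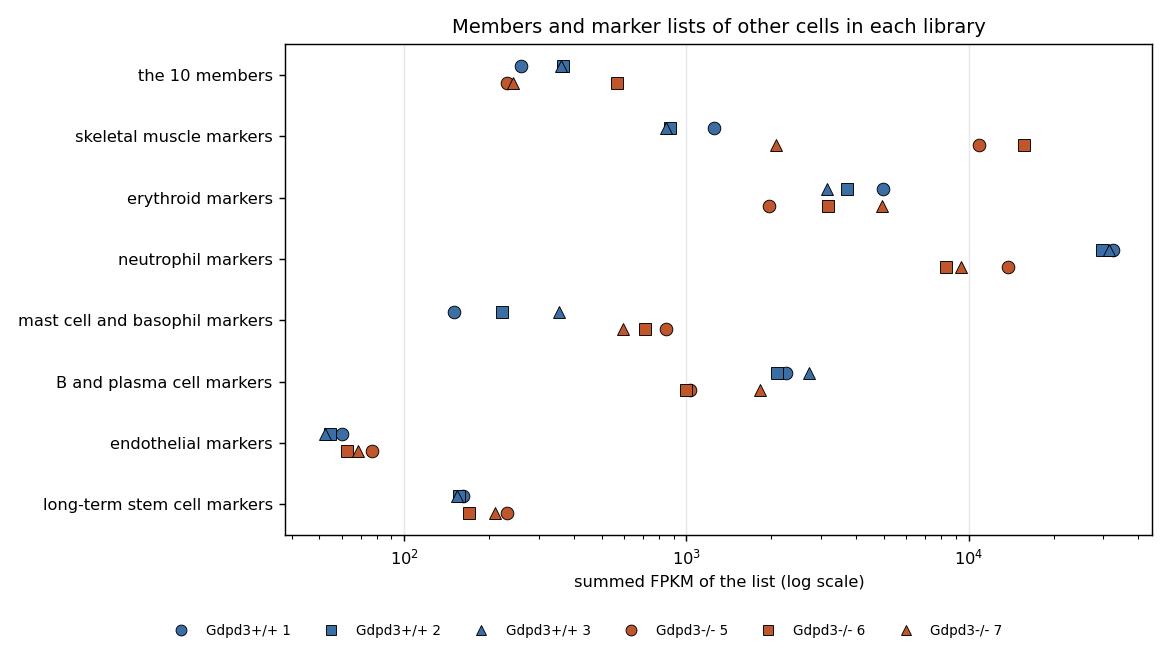
Summed FPKM (horizontal axis, log scale) of the members and of marker lists of other cells in each Gdpd3+/+ (blue) and Gdpd3-/- (orange) library. Among the members replicate 6 is highest at 565, of which Pf4 and Ppbp make 406, and among the skeletal muscle markers replicates 5 and 6 stand at 10910 and 15667, far above replicate 7 at 2077.

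The genes most like the members in their profile over the 6 libraries were sought among 15093 other genes with a mean of at least 1 FPKM, by the root mean square difference of log2(FPKM + 0.1) centred on its mean. They were Cldnd2 (difference 0.0534), Zfp867 (0.0816), Tmem203 (0.0930), Med12l (0.102) and Snap29 (0.103). The members' mean profile is itself highest in replicate 6 (0.826, at most 0.114 in any other library), where Ppbp had the largest excess, 26.2 times its Gdpd3+/+ mean. Genes chosen for likeness to this profile therefore peak there by the choice alone. Cldnd2, for one, was read at 2.12, 3.12 and 2.78 FPKM in Gdpd3+/+ and at 2.14, 4.88 and 2.42 in Gdpd3-/-. The members themselves lay at 0.153 (Pf4) to 1.43 (Ppbp) from their own mean profile. These 5 genes were closer to it than any member, which picking the nearest of 15093 genes favours.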

How the data were processed

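RNA was taken from sorted LT-CML stem cells, 3 Gdpd3+/+ and 3 Gdpd3-/- libraries grouped by the genotype in their labels, and sequenced after SMART-Seq v4 amplification and Nextera XT fragmentation as paired-end reads of 150 bases. Per the labels' processing notes, the authors used Trimmomatic, Trim Galore, cutadapt 1.16, STAR 2.6.1a, featureCounts 1.6.1, DESeq2 and build mm9. The authors deposited FPKM values for 36976 genes with the gene length, and FPKM times length sums to 1e+09 in every library. Their own DESeq2 comparison of the genotypes (mean, log2 fold change with error, Wald statistic, p-value and its adjusted form), also deposited, was not used here.

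FPKM times length fell on whole multiples of 1 step in every library (100% of the 13998 to 19153 values checked per library, within 0.05 of a step). Of these, 48.7% to 57.0% were multiples of 100 steps and 72.1% to 79.1% ended in a simple fraction (00, 25, 33, 50, 67 or 75 hundredths). The step was therefore read as 0.01 of a count and the values as fractional counts, in which shared reads are split between genes or places. This is an inference from the values, and whether 1 count is a read or a pair is not given in the sources used here. Of the 60 values of the members, 43 were whole counts, and they ranged from 30 to 15297 counts. The lower totals of the Gdpd3-/- libraries make their low values less precise, and intervals cover counting error only.

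The members and lists were chosen with earlier results of these data known. Genotypes were compared with limma 3.58.1 (R 4.3.3, trended prior variance) on log2(FPKM + 0.1), keeping 24689 genes whose FPKM averaged 0.05 or more, and with Benjamini-Hochberg adjustment over them. Functions were tested on simulated data. Exact permutation tests of means (two-sided, 20 assignments) were run for single genes and ratios. Named were all members, Gdpd3, the 5 genes nearest to the members' mean profile, genes of the sorting gate, in each megakaryocyte and platelet list those with the highest level and the highest and lowest fold change, and genes of any list with an adjusted p under 0.05. Cdh5, Plvap, Ecscr, Tek, Tie1, Pecam1, Kdr, Sele, Jchain, Cd79b, Ebf1, Mcpt8, Prss34, Ms4a2, Tubb1 and Cavin2 were named after their values were seen. So were genes called only under an alternative, and the genes sharing exon bases with members. Alternative settings were other pseudocounts (0.01, 1), other filters (none, or an average FPKM of 1), scaling by TMM (trimming 30% for M and 5% for A), quantile normalization and omission of single libraries, and limma voom on the recovered counts was added after seeing the data. 1 gene of the lists is counted with them but not reported here by itself.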

Additional observations from a re-analysis of the deposited data

How the results depend on the processing

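No member was called in any of the 13 alternatives. Of 130 log2 fold changes of members under them, 122 kept their direction. The lowest limma adjusted p was 0.0672, for Treml1 without Gdpd3-/- replicate 7. Directions reversed for Vwf and Selp with TMM scaling (-0.052 and -0.0974), quantile normalization (-0.15 and -0.0041) and without Gdpd3-/- replicate 6 (-0.12 and -0.18), and for Pf4 without replicate 5 (0.12) and without replicate 7 (0.03); the cause was not tested. Leaving out 1 library at a time, these ranged from -0.5625 to 0.1196 for Pf4, from -0.1243 to 0.3793 for Vwf and from -0.1839 to 0.2651 for Selp. The number of genes called over all genes was 422, and 576 with a pseudocount of 0.01, 225 with a pseudocount of 1, 213 with no filter, 673 at a mean FPKM of at least 1, 351 with TMM scaling, 325 with quantile normalization and 903 with voom on the recovered counts, an alternative chosen after seeing the data. Leaving out 1 library moved it between 0 (without Gdpd3+/+ replicate 1) and 3413 (without Gdpd3-/- replicate 7), with 1 and 21 without Gdpd3+/+ replicates 2 and 3, 187 without Gdpd3-/- replicate 5 and 462 without replicate 6. Among the other megakaryocyte and platelet genes 0 were called, and 1 at a mean FPKM of at least 1 (Tbxa2r), 1 with TMM scaling (Rap1b), 2 with voom (Vamp8 and Rap1b) and between 0 and 6 when 1 library was left out, of which 1 (Cavin2, lower) without replicate 6 and 6 without replicate 7. Members whose libraries did not overlap, 0 in either direction, became 1 lower with TMM scaling (beside 15% of all genes) and 1 with quantile normalization (15.5%), and between 0 and 5 lower and 0 and 3 higher when 1 library was left out, with shares of all genes of 9.7% to 16.8% lower and 25.6% to 34.7% higher. No paired analysis was possible because the replicate numbers of the genotypes (1, 2 and 3 against 5, 6 and 7) share none. Depth limits the lowest values most, with 3 of the 60 member values resting on fewer than 100 counts.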
